A study of Mus musculus with 9 samples.

Results

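Bone morphogenetic protein (BMP) ligands and their secreted antagonists were described here as a group of 9 genes, chosen by symbol: the ligands Bmp2, Bmp4, Bmp5, Bmp6, Bmp7 and Gdf10 and the antagonists Grem1, Chrdl1 and Nog. All 9 had rows, 11 transcripts in all, in a table of 24537 gene names and 35745 RefSeq transcripts that compares sham quadriceps with sham heart, and 8 of the 9 passed the filter of more than 5 counts in at least 2 libraries. Of the 9 genes, 6 had a row in a second table of 587 extracellular genes that compares quadriceps after transverse aortic constriction (TAC) with sham quadriceps, and all 6 passed that filter. Bmp7, Grem1 and Chrdl1 after TAC were not analysed here. The mice were male wild-type C57Bl/6JCrl by the study's methods (C57Bl6 in the series text), operated on at 8 weeks of age by the series text and at 8 to 10 weeks by the methods, and no group carried a transgene or deletion. TAC, a band around the aortic arch that puts the left ventricle under lasting pressure overload, served the study as a model of heart failure with muscle wasting. Tissue was taken 12 weeks after TAC or sham surgery, and the 3 groups were sham heart, sham quadriceps and TAC quadriceps with 3 libraries each. The same 3 sham quadriceps libraries served in both comparisons, and their counts were identical in the 2 tables for 587 of 587 rows. The protocol text of the heart libraries names quadriceps only, so the tissue labels were checked on markers below.

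BMP ligands are secreted dimers of the TGF-beta superfamily. They bind type I and type II serine/threonine kinase receptors, which phosphorylate Smad1, Smad5 and Smad9, and these enter the nucleus with Smad4 and switch on targets such as the Id genes. Antagonists such as Noggin, Gremlin and Chordin-like proteins hold the ligands in the extracellular space and keep them from their receptors. In adult skeletal muscle BMP signalling is known to favour muscle mass and to counter atrophy after denervation, and in the embryo it is needed for the heart to form. Gdf10 (BMP3b) is a divergent member of the family and, unlike Bmp2, Bmp4 and Bmp7, is not a classical bone inducer.

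The promoter windows of 4 ligands called in either comparison are shown as the sequence context of these genes. They are the 250 bases before the RefSeq transcription start (GRCm38.p6), written 5′ to 3′ on the strand of the gene, and 5 of the 9 genes matched an entry in the RefSeq promoter table. Capitals mark CANNTG, the E-box core that is recognised by basic helix-loop-helix factors such as MyoD and that reads the same pattern on both strands. Bmp5 lies on the + strand (window chr9:75775115-75775364), Gdf10 on the + strand (chr14:33923337-33923586), Bmp6 on the + strand (chr13:38345466-38345715) and Bmp4 on the - strand (chr14:46390670-46390919).
Bmp5: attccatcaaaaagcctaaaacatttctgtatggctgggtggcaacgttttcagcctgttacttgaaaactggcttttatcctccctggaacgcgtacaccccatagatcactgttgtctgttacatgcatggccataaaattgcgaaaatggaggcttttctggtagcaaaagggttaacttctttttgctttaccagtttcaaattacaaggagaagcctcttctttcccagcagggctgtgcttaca
Gdf10: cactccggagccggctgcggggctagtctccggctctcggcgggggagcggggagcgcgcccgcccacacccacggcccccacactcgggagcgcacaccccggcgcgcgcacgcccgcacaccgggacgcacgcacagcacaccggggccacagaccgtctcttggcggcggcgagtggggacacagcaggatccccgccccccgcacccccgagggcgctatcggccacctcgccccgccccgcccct
Bmp6: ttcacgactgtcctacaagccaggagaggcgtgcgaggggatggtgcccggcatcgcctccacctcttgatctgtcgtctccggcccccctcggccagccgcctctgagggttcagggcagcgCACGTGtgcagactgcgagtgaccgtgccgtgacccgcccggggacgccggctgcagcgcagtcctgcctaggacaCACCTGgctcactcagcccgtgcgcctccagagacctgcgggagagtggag
Bmp4: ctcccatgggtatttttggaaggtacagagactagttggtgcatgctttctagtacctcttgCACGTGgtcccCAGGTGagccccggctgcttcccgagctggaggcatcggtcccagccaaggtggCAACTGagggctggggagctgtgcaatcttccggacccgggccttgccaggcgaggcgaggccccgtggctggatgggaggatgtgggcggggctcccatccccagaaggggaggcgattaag
CANNTG was found 3 times before Bmp4, at positions -188, -177 and -123 from the start. It was found 2 times before Bmp6, at -127 and -51, and these letters did not occur in the windows of Bmp5, Gdf10 and Grem1. The motif was present in 66.2% of all 32851 promoter windows of this length. The windows differed in base composition, since GC content was 42.8% for Bmp5, 63.2% for Bmp4, 68.8% for Bmp6, 72.0% for Grem1 and 78.8% for Gdf10, beside a median of 52.4% over all windows. The Gdf10 window held 35 CG dinucleotides and that of Bmp5 held 4, where the median window held 6. Bmp5 and Gdf10, which were both higher in quadriceps than in heart, thus had windows at opposite ends of this range. TATAAA on either strand, present in 12.4% of all windows, and a MEF2-like core (CTA and TAG with 4 bases between them), present in 3.2%, did not occur in the windows of these 5 genes. GGCGCC, the core of a Smad1/5 binding site, occurred 1 time before Grem1 and in 9.6% of all windows.

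Library totals ranged from 33102826 to 38382751 counts in sham heart and from 23383452 to 32989108 counts in sham quadriceps, and TAC libraries 1 and 2 had 48614494 and 48999600 counts. The 587 listed genes of the TAC table took 2.4% to 3.05% of these 5 libraries, and the third TAC library, numbered 4 in the table, was used by its counts. All 8 skeletal muscle fibre markers were higher in quadriceps and all 8 cardiomyocyte markers were higher in heart. Normalised counts are raw counts over the effective library size after TMM, itself set against the average of the 6 libraries compared. TMM (trimmed mean of M-values) centres the fold changes on the bulk of the features given to it. The median log2 fold change over all tested features was -0.06 with TMM and -0.80 with library totals for quadriceps against heart, and 0.03 and -0.63 for TAC against sham. Both scalings are therefore given where they differ on a member.

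The members were first ranked within each tissue by RPKM (counts per kilobase of transcript, scaled by the library total), the scale on which different genes can be compared. In sham quadriceps Bmp6 had the highest level, with 2.21 ± 0.36 RPKM (SD, n = 3), followed by Bmp5 with 1.88 ± 0.43 RPKM, Bmp4 with 1.36 ± 0.15 RPKM, Nog with 1.28 ± 0.27 RPKM and Gdf10 with 1.09 ± 0.45 RPKM. Chrdl1 with 0.659 ± 0.340 RPKM, Bmp2 with 0.333 ± 0.132 RPKM and Bmp7 with 0.0317 ± 0.0193 RPKM came next, and Grem1 had 0 counts. Neighbours in this order overlapped in their library values, apart from Bmp5 above Bmp4, Bmp2 above Bmp7 and Bmp7 above Grem1. In sham heart the order was Bmp6 with 5.02 ± 0.53 RPKM, Bmp4 with 2.40 ± 0.09 RPKM, Bmp5 with 0.407 ± 0.059 RPKM, Bmp2 with 0.384 ± 0.136 RPKM and Bmp7 with 0.362 ± 0.10 RPKM. Below these lay Gdf10 with 0.196 ± 0.052 RPKM, Chrdl1 with 0.152 ± 0.078 RPKM and Nog with 0.0635 ± 0.0334 RPKM, and Grem1 again had 0 counts. Here the separate steps were Bmp6 above Bmp4, Bmp4 above Bmp5, Bmp7 above Gdf10 and Nog above Grem1. Bmp6 thus headed both tissues, and Nog, which came last of the detected members in heart, followed Bmp4 in quadriceps. The highest value of any member in any library was 5.47 RPKM, for Bmp6 in heart.

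**Figure D1:**
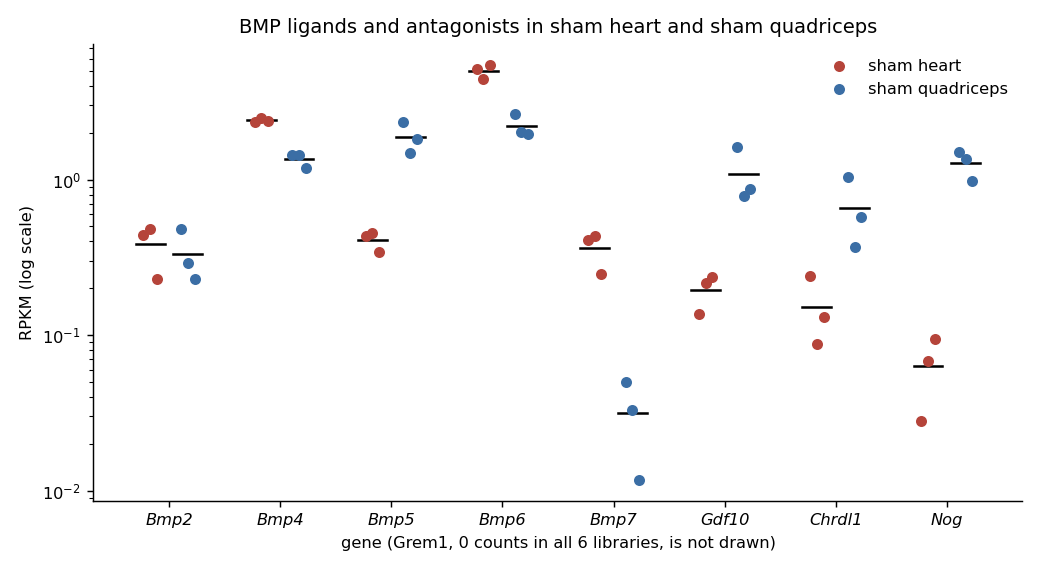
RPKM on a log axis of the 8 members with counts in the 3 sham heart (red) and 3 sham quadriceps (blue) libraries, with black bars at the means. The 2 colours do not overlap for any gene drawn except Bmp2, and Nog shows the widest gap, with means of 0.0635 RPKM in heart and 1.28 RPKM in quadriceps.

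The comparison of sham quadriceps with sham heart addresses which of these secreted factors are richer in muscle than in heart. With TMM, Nog, Gdf10, Bmp5 and Chrdl1 were higher in quadriceps, by 33.4-, 9.26-, 7.67- and 7.14-fold, and Bmp7 and Bmp6 were lower, by 6.36- and 1.35-fold. Bmp2 and Bmp4 did not pass the test. At an adjusted p under 0.05 in edgeR's quasi-likelihood test, 4 of the 8 tested members were therefore called higher and 2 lower, where 66.6% of all 24280 tested transcripts were called, 32.2% higher and 34.4% lower. With so many transcripts called, this count is close to the background. The criterion of a log2 fold change over 2 in either direction with p under 0.05 was met by 15.6% of transcripts, 7% higher and 8.64% lower, and by 5 of the 8 members, 4 higher and 1 lower. With library totals 4 members were called higher and 3 lower, Bmp4 being added, where 76% of all transcripts were called, 13.3% higher and 62.6% lower. The log2 fold changes of Nog, Gdf10, Bmp5, Chrdl1 and Bmp7 were then 4.32, 2.48, 2.20, 2.11 and -3.40. All these are bulk tissue values, in which fewer cells of a type and less RNA per cell cannot be told apart.

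Among the ligands, Bmp5, which is known for its part in the skeleton of the ear and sternum, had normalised counts of 44.8, 45.9 and 35.0 in heart, against 375, 273 and 320 in quadriceps. Every quadriceps library lay several-fold above every heart library. The log2 fold change was 2.94 (SE 0.17, adjusted p = 6.13e-07). Bmp5 (chr9:75775364-75900310, + strand, GRCm38, 7 exons) shares 1878 of its 3822 exon bases with Gm26903 on the opposite strand, and whether counting used strand is not given in the sources used here, so reads of the 2 genes may not be separated.

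Gdf10 (chr14:33923587-33937983, + strand, 3 exons) had normalised counts of 13.9, 21.5 and 23.6 in heart and 252, 142 and 150 in quadriceps. The first quadriceps library was the highest, and the groups were far apart. The log2 fold change was 3.21 (SE 0.29, adjusted p = 1.005e-05).

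Bmp7, which is required for kidney and eye development, went the other way. It had raw counts of 55, 61 and 30 in heart, against 6, 4 and 1 in quadriceps, which are normalised counts of 40.4, 42.4 and 24.4 against 7.71, 5.84 and 1.98. The log2 fold change was -2.67 (SE 0.43, adjusted p = 0.00046). The third quadriceps library, with 1 count, lay below the level that 3 counts would give there, 0.035 RPKM. Bmp7 lies at chr2:172868012-172940321 on the - strand and shares no exon base with another gene.

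Bmp6, an iron-responsive ligand that induces hepcidin in the liver, had normalised counts of 419, 353 and 440 in heart and 329, 291 and 273 in quadriceps. All heart libraries lay above all quadriceps libraries, by a narrow margin. The log2 fold change was -0.44 (SE 0.13, adjusted p = 0.0125) with TMM and -1.18 with library totals. The call was lost without heart library 3 (adjusted p = 0.0564) or without quadriceps library 3 (adjusted p = 0.0569). Bmp6 shares 224 of its 3593 exon bases with Txndc5 on the opposite strand. Since the strand setting of the counting is not given, reads of Bmp6 and Txndc5 may not be separated there.

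Bmp4, which induces mesoderm in the embryo, had normalised counts of 130, 137 and 132 in heart and 125, 142 and 113 in quadriceps. The groups overlapped on this scale, and the log2 fold change was -0.07 (SE 0.14, 95% interval -0.38 to 0.25, adjusted p = 0.681). With library totals it was -0.82 with an adjusted p of 0.00062 (-0.65 and -0.79 with limma on log2 RPKM at pseudocounts of 0.5 and 0.1, adjusted p = 0.000501 and 0.000596), the same shift as that of the median transcript, so Bmp4 stood close to the middle of all transcripts on either scale. Its second transcript in the table gave a log2 fold change of -0.05. Bmp4 shares 89 of its 2064 exon bases with Gm15217 on the opposite strand.

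Bmp2, which drives bone and cartilage formation, had normalised counts of 42.6, 45.9 and 22.0 in heart and 72.0, 49.7 and 37.5 in quadriceps. These overlapped, with a log2 fold change of 0.55 (SE 0.33, 95% interval -0.19 to 1.28, adjusted p = 0.166) with TMM and -0.19 with library totals. Neither its direction nor its size was settled at this depth.

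Of the antagonists, Nog (Noggin, which binds BMP2, BMP4 and BMP7 and masks their receptor sites) showed the largest difference of the members. Its raw counts were 2, 5 and 6 in heart, against 94, 86 and 44 in quadriceps, and its normalised counts 1.47, 3.47 and 4.88 against 121, 126 and 86.9. The log2 fold change was 5.06 (SE 0.33, adjusted p = 1.26e-06). One heart library was below 3 counts, so the size of the fold rests on few reads. Nog (chr11:89300638-89302332, - strand) is a gene of 1 exon with no exon base shared with another gene.

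Chrdl1 (Chordin-like 1, X-linked, at chrX:143285674-143394262 on the - strand) binds BMP4 and other BMPs. It had normalised counts of 27.2, 9.73 and 14.7 in heart and 181, 74.5 and 111 in quadriceps. The spread within each tissue was wide, but the groups did not overlap, and the log2 fold change was 2.84 (SE 0.41, adjusted p = 0.000237). A second Chrdl1 transcript, which shares reads with the first, gave 2.94.

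Grem1 (Gremlin 1, which binds BMP2, BMP4 and BMP7 and is best known from the limb bud and kidney) had 0 counts in all 6 libraries. A count of 0 allows up to 3 counts, which is 0.0478 to 0.0785 RPKM in these libraries, counting error only. Grem1 (chr2:113746164-113758646, - strand) was not tested. Of the 8 tested members, 6 had no overlap between the groups, beside 72.6% of all tested transcripts.

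The make-up of the ligand transcripts was then compared as shares of the summed RPKM of the 6 ligands in a library, which do not depend on how libraries are scaled. In heart Bmp6 took 57.2 ± 4.75% (SD, n = 3) and Bmp4 27.4 ± 1.71%, while Bmp5 took 4.65 ± 0.75% and Gdf10 2.24 ± 0.60%. In quadriceps Bmp6 took 32.2 ± 1.38%, Bmp5 27.3 ± 2.63%, Bmp4 20.04 ± 3.42% and Gdf10 15.4 ± 3.03%. Bmp2 held a similar share in both, 4.39 ± 1.62% and 4.72 ± 0.94%, and Bmp7 went from 4.15 ± 1.21% in heart to 0.442 ± 0.218% in quadriceps. The ratio of Bmp5 to Bmp6 was 0.0836, 0.102 and 0.0622 in heart and 0.892, 0.735 and 0.918 in quadriceps, 10.5-fold higher. The summed level of Nog and Chrdl1 over that of the 6 ligands was 0.0300, 0.0182 and 0.0252 in heart and 0.296, 0.286 and 0.255 in quadriceps, 11.6-fold higher. For both ratios the exact two-sided permutation p was 0.1, the smallest that 3 against 3 libraries can give, and 0.16 after adjustment over the 8 ratios computed.

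**Figure D2:**
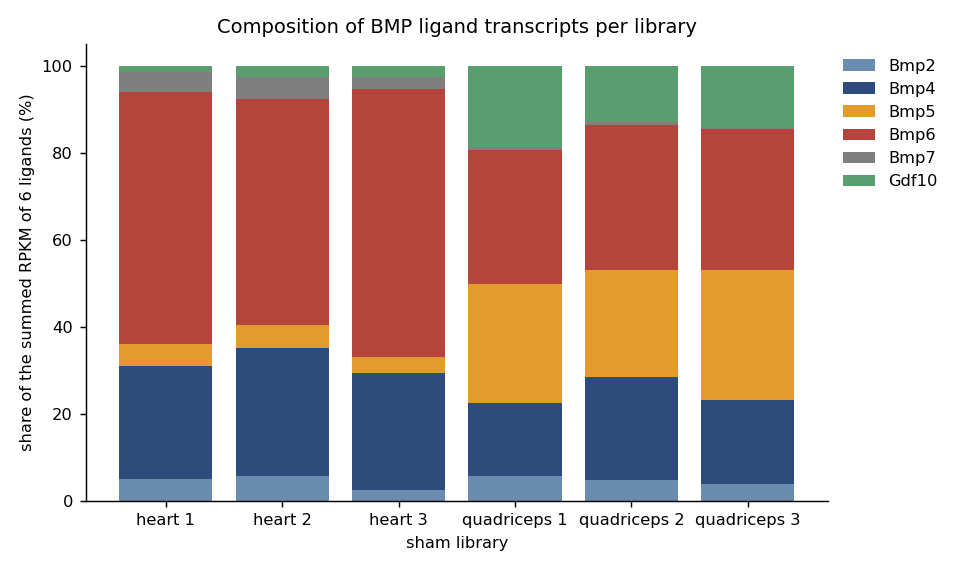
Share of each of the 6 ligands in their summed RPKM (percent, stacked bars) for each sham heart and sham quadriceps library. Bmp6 and Bmp4 fill most of each heart bar, with means of 57.2% and 27.4%, while Bmp5 and Gdf10, with means of 27.3% and 15.4%, are wide only in the quadriceps bars.

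The comparison of TAC with sham quadriceps asks which secreted factors change in muscle during heart failure with wasting. Gdf10 fell 3.66-fold, from 121 ± 33.7 to 32.9 ± 13.9 normalised counts (SD, n = 3 each). Bmp4 was 1.73-fold higher, at 147 ± 7.34 against 85.1 ± 11.2 normalised counts, with TMM and 0.16 higher on the log2 scale, without a call, with library totals. Bmp2, Bmp5, Bmp6 and Nog did not pass the test. Of the 6 members, 1 was called higher and 1 lower, where 29.7% of the 586 tested genes were called, 17.7% higher and 11.9% lower. As a share this is near the background. Of the 6 members only Gdf10 and Bmp4 had no overlap between the groups, a share below the 47.3% of all tested genes. The criterion of a log2 fold change of at least 1 with p under 0.05, met by 24.1% (11.4% higher and 12.6% lower), was met by Gdf10 alone. With library totals Gdf10 was the 1 member called, where 34.1% of all genes were called, 3.41% higher and 30.7% lower.

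Gdf10 had normalised counts of 159, 98.0 and 105 in sham, against 45.5, 35.2 and 18.0 in TAC. The highest TAC library stayed below the lowest sham library. The log2 fold change was -1.87 (SE 0.37, adjusted p = 0.00997), and it ranged from -2.25 to -1.09 with a call in all 9 other settings. Without any 1 library the adjusted p lay between 0.0104 and 0.0478.

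Bmp4 (chr14:46383520-46390669, - strand, 4 exons) had normalised counts of 78.9, 98.0 and 78.4 in sham and 141, 156 and 145 in TAC. The TAC values were close together and all above sham, and the log2 fold change was 0.79 (SE 0.23, adjusted p = 0.0324). In RPKM, the scale of the library totals, it had 1.45, 1.43 and 1.19 in sham and 1.46 and 1.58 in TAC libraries 1 and 2, so there the gap nearly closed: the log2 fold change with library totals was 0.16 (adjusted p = 0.644). The call was also lost without any 1 of sham libraries 1, 2 and 3 and TAC libraries 1 and 4 (adjusted p = 0.137, 0.0585, 0.139, 0.0539 and 0.062), and was kept without TAC library 2 (0.0466). Relative to the listed extracellular genes Bmp4 was thus higher in TAC, while relative to whole libraries no difference was detectable.

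Bmp5 had normalised counts of 237, 189 and 223 in sham and 121, 216 and 191 in TAC. The first TAC library was low and the other two lay within the sham range, with a log2 fold change of -0.30 (SE 0.28, 95% interval -0.93 to 0.34, adjusted p = 0.457), and of -1.02 (adjusted p = 0.0571) with library totals. Bmp6 had 208, 201 and 190 in sham and 225, 158 and 183 in TAC. The values were interleaved, and the log2 fold change was -0.08 (SE 0.23, 95% interval -0.61 to 0.45, adjusted p = 0.822), and -0.71 (adjusted p = 0.096) with library totals. Bmp2 had 45.5, 34.4 and 26.1 in sham and 21.3, 57.7 and 19.0 in TAC. Its second TAC library was the highest of the 6 and the other TAC libraries the lowest, and its log2 fold change of -0.13 (SE 0.48, 95% interval -1.22 to 0.96, adjusted p = 0.859) had the widest interval of the 6 members.

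Nog, the only antagonist among the members with a row here, had normalised counts of 76.4, 86.9 and 60.5 in sham and 66.8, 118 and 83.1 in TAC. The groups overlapped, with a log2 fold change of 0.26 (SE 0.29, 95% interval -0.40 to 0.92, adjusted p = 0.53) with TMM and -0.34 with library totals. The antagonist that stood out most between the sham tissues was therefore without a detectable difference after TAC at this depth.

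**Figure D3:**
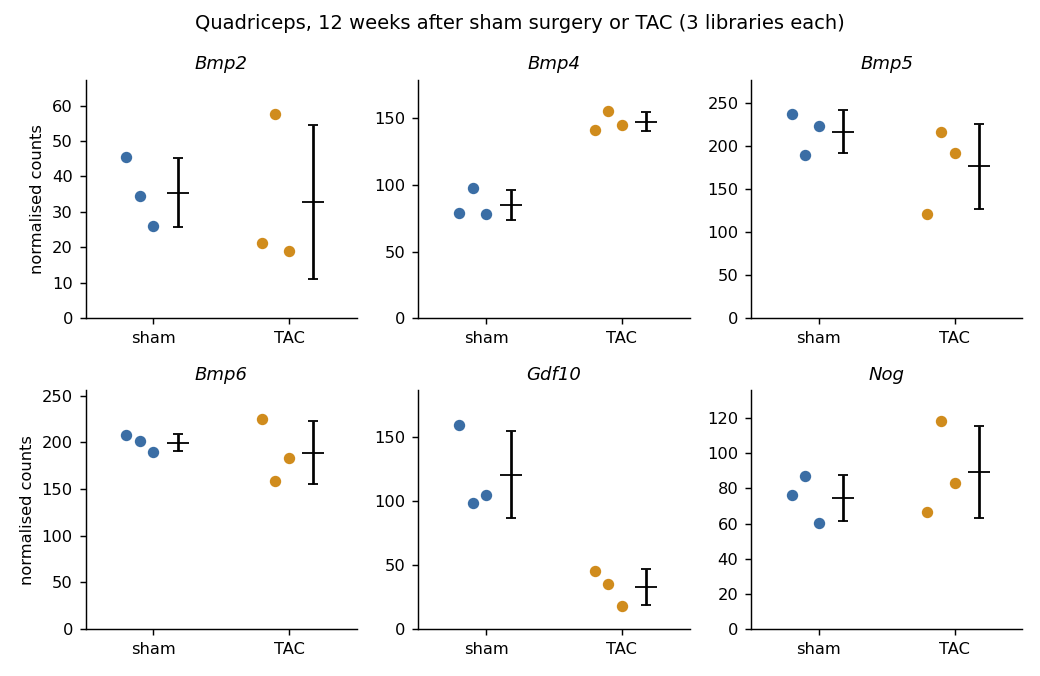
Normalised counts of the 6 members with a row in the TAC table, in 3 sham (blue) and 3 TAC (orange) quadriceps libraries, with mean and SD as black bars and each axis from 0. The groups separate for Gdf10, with means of 121 and 32.9, and for Bmp4, with means of 85.1 and 147, and overlap in the other panels.

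Ratios of members within a library, per kilobase of transcript, do not depend on the scaling and use the same 6 libraries. Gdf10 over Bmp6 was 0.612, 0.390 and 0.440 in sham and 0.162, 0.178 and 0.0786 in TAC, 3.59-fold lower. Bmp4 over Bmp6 was 0.551, 0.709 and 0.601 in sham and 0.916, 1.43 and 1.15 in TAC, 1.86-fold higher. Bmp4 over Gdf10 was 0.901, 1.82 and 1.37 in sham and 5.65, 8.04 and 14.7 in TAC, 6.68-fold higher. None of these 3 ratios overlapped between the groups, and each had an exact two-sided permutation p of 0.1, the smallest possible, and 0.16 after adjustment over the 8 ratios. These 3 share members, so they are not independent of each other. Bmp4 over Gdf10 divides the member called higher by the member called lower in the same libraries. Its separation was therefore fixed by the counts above and adds no evidence. The ratios of Gdf10 and of Bmp4 to Bmp6 each divide a called member by an uncalled one in the same libraries. They restate those counts as well and are not separate evidence. With library totals (5 libraries) the log2 fold change was 0.16 for Bmp4 and -0.71 for Bmp6, neither called. On that scale most of the difference in Bmp4 over Bmp6 lay in Bmp6. Bmp5 over Bmp6 (exact permutation p = 0.8) and Nog over the 5 listed ligands (exact permutation p = 0.3) overlapped. Per kilobase, Bmp4 came first of the 6 members in TAC libraries 2 and 4 and second after Bmp6 in TAC library 1, and Gdf10 came last or, in TAC library 1, before Bmp2 only.

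**Figure D4:**
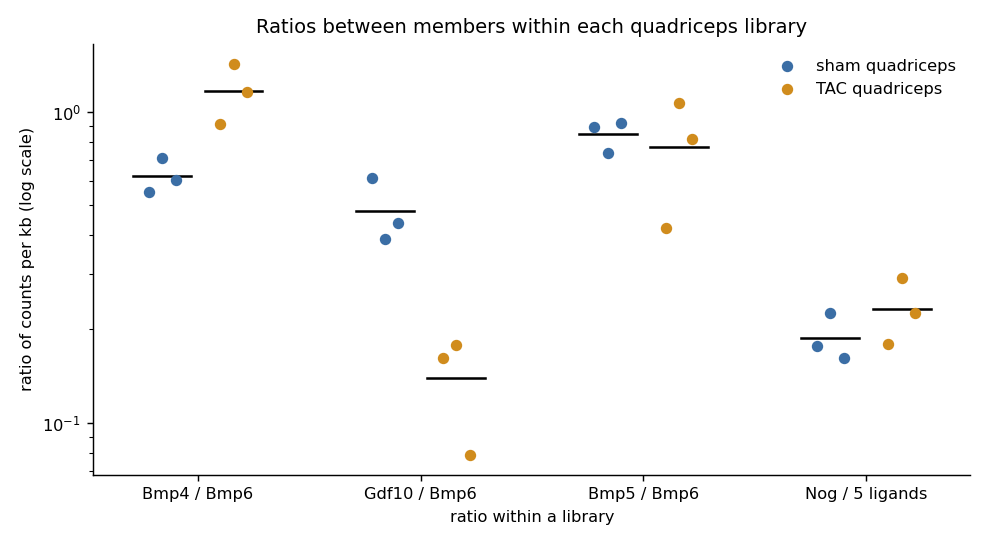
Within-library ratios of counts per kilobase (log axis) in 3 sham (blue) and 3 TAC (orange) quadriceps libraries, with black bars at the means. Bmp4 over Bmp6 lies higher and Gdf10 over Bmp6 lower in every TAC library than in every sham library, while Bmp5 over Bmp6 and Nog over the 5 ligands overlap.

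Set side by side, Gdf10 was higher in sham quadriceps than in sham heart (log2 fold change 3.21) and lower in TAC than in sham quadriceps (-1.87), and Bmp4 had -0.07 and 0.79, Bmp5 2.94 and -0.30, Bmp6 -0.44 and -0.08, Bmp2 0.55 and -0.13, and Nog 5.06 and 0.26. These pairs share the 3 sham quadriceps libraries, so that they are not independent of each other.

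**Figure D5:**
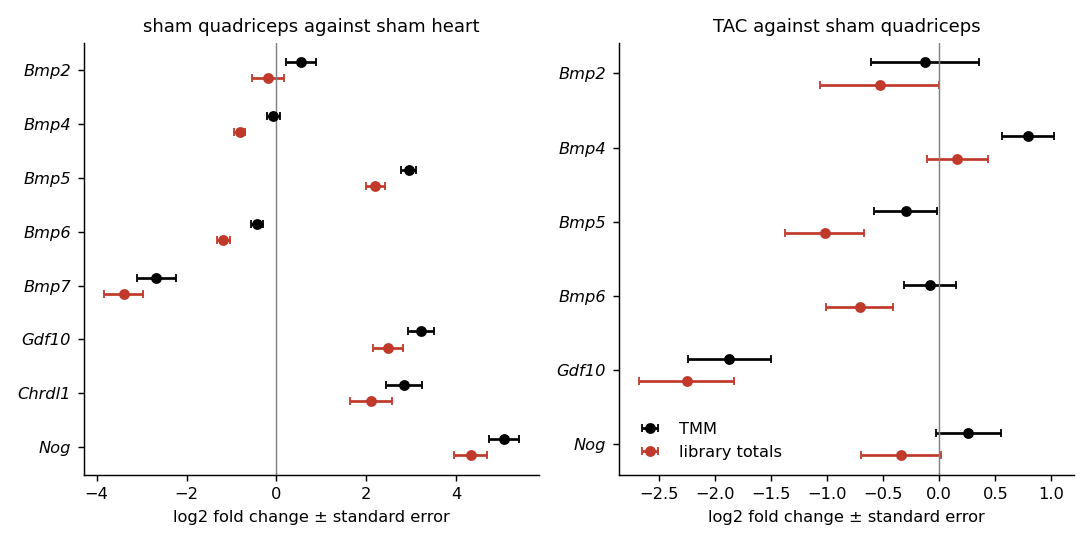
Log2 fold change with its standard error of each member tested, for sham quadriceps against sham heart (left) and TAC against sham quadriceps (right), with TMM (black) and library totals (red; 5 libraries on the right). Library totals lie to the left of TMM for every gene, and Bmp2 on the left side and Nog on the right side change sign.

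The rest of the pathway was described from lists of symbols. Between the sham tissues, 12 other ligands with BMP or GDF names had a row and 3 passed the filter, of which 2 were higher and 1 lower in quadriceps. Gdf1, a ligand of left-right patterning that shares a bicistronic transcript with Cers1, was higher, at 139 ± 43.1 against 5.72 ± 2.76 normalised counts (log2 fold change 4.57, SE 0.36, adjusted p = 4.12e-06), and Bmp3, a ligand that opposes bone formation, had 3.71. Reads of Gdf1 and Cers1 on their shared transcript were not told apart. Gdf6, a joint-forming ligand, was lower, with -2.01. Among 15 tested antagonists and binding proteins, 5 were higher and 5 lower with TMM, and 2 higher and 6 lower with library totals. Chrdl2, the relative of Chrdl1, had a log2 fold change of 2.55. The tolloid-like protease Tll2, of a family that cleaves Chordin, had raw counts of 38, 36 and 26 in heart, against 0, 0 and 1 in quadriceps, a ratio of summed counts of 48.9 toward heart with an exact 95% counting interval of 8.57 to 1948, and Kcp, a chordin-like protein that enhances BMP signalling, had -1.33.

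Of 14 tested receptors and co-receptors, 7 were higher and 6 lower in quadriceps, and 4 and 7 with library totals. The type I receptor Bmpr1b had normalised counts of 15.4, 22.2 and 18.7 in heart and 308, 272 and 282 in quadriceps, the largest difference of this list toward quadriceps (log2 fold change 3.93, SE 0.17, adjusted p = 8.16e-08), and the type II receptor Acvr2b followed with 2.06. The pseudoreceptor Bambi fell by 3.45 and the endothelial co-receptor Eng (Endoglin) fell by 2.46 on the log2 scale. Of 13 Smads and regulators, 3 were higher and 6 lower, and 2 and 11 with library totals. Tob1, an antiproliferative protein that represses BMP Smads, had 2.72 and the Smad phosphatase Ppm1a 0.99, while Smad9 had -3.43 and the inhibitory Smad7 -1.38.

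Of 17 tested BMP target genes, 1 was higher and 13 lower in quadriceps with TMM, where 32.2% of all tested transcripts were higher and 34.4% lower. The list median was -1.32 beside -0.06 over all transcripts. With library totals 0 targets were higher and 13 lower, where 13.3% of all transcripts were higher and 62.6% lower. The list median was then -2.08 beside -0.80. Smad6, Smad7, Smad9 and Bambi stand in this list and in one of the lists above. The gene that was higher, Msx1, had 0.73 with TMM and -0.01 with library totals. The largest falls were those of Tbx20 and Nkx2-5, transcription factors of the heart muscle itself, which had 0 counts in every quadriceps library and were at least 373.5- and 103.9-fold higher in heart, against 3 counts per library.

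After TAC the listed extracellular genes held few others of the pathway, and none of the Smads or targets. Of 7 antagonists and binding proteins with a row, 1 was called with TMM, as lower, and 3 were lower with library totals, with a list median of -0.52 beside 0.03 over all tested genes. The lower gene was Fstl1 (follistatin-like 1, a secreted glycoprotein that binds BMP4), with normalised counts of 808, 579 and 734 in sham and 220, 251 and 311 in TAC. These did not overlap, and the log2 fold change was -1.44 (SE 0.24, adjusted p = 0.00676). Of 3 receptors and co-receptors, 1 was called: Tgfbr3 (betaglycan, a co-receptor for TGF-beta, inhibin and BMPs) had 363, 441 and 315 in sham and 1894, 654 and 788 in TAC. All TAC libraries lay above sham, with the first far above the others, and the log2 fold change was 1.58 (SE 0.41, adjusted p = 0.0217) with TMM and 1.14 (adjusted p = 0.0714) with library totals. The other ligand with a row, Gdf1, had -0.64 (adjusted p = 0.435).

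Markers of other cell types also moved between the groups, and their part in the values above was not tested. Between the sham tissues all 8 endothelial markers were lower in quadriceps (summed level 176 to 193 RPKM in heart and 32.8 to 42.7 RPKM in quadriceps), as were 6 of 10 fibroblast markers (358 to 404 against 143 to 234 RPKM), 5 of 7 macrophage and leukocyte markers (70.3 to 75.2 against 18.8 to 30.2 RPKM) and 4 of 8 smooth muscle and pericyte markers, of which 1 was higher. Higher in quadriceps were 5 of 6 tenocyte markers (6.36 to 9.23 against 47.0 to 57.0 RPKM), all 5 adipocyte markers (0.542 to 1.98 against 12.4 to 103 RPKM), all 4 satellite cell markers and 1 of 5 Schwann cell markers. Of 5 mesothelial and epicardial markers, 1 was tested and was lower. These calls are with TMM, while the summed levels are in RPKM, the scale of the library totals. With library totals 10 of 10 fibroblast and 7 of 7 macrophage and leukocyte markers were lower. So were 6 smooth muscle and pericyte, 2 Schwann cell and 1 tenocyte markers, where 62.6% of all transcripts were lower. The counts called higher stayed the same, apart from 0 for smooth muscle and pericyte. The adipocyte sum varied most among the quadriceps libraries and was highest in library 1, which also had the highest RPKM of all 8 detected members among the quadriceps libraries. In normalised counts this did not hold for Bmp4 and Nog. They were highest in quadriceps library 2, at 142 and 126, against 125 and 121 in library 1.

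After TAC, 8 of 10 fibroblast markers had a row and 6 of them fell. Their summed normalised counts were 14340, 10990 and 12480 in sham and 8739, 6618 and 9789 in TAC, with a median log2 fold change of -1.84. The 6 that fell moved in the same direction as Gdf10 and Fstl1, and Col1a1 among them fell by 3.31 on the log2 scale while Dcn had 0.17 (adjusted p = 0.601). Dcn had the most counts of these markers in every library, so the sums are weighted toward it. Its raw counts were 9157, 5942 and 4345 in sham and 8154, 5500 and 8610 in TAC. All 3 listed endothelial markers of 8 (Flt1, Pecam1 and Vwf) were higher with TMM, with summed normalised counts of 1710 to 1824 in sham and 2498 to 3072 in TAC, and none was called with library totals, where their median log2 fold change was 0.09. Bmp4 showed the same pattern over the 2 scalings, which is not particular to it or to endothelial markers. Over all tested genes the median log2 fold change was 0.03 with TMM and -0.63 with library totals. Genes called higher numbered 104 with TMM and 20 with library totals. Lyz2, the listed macrophage and leukocyte marker of 7, fell by 1.25, and 1 of the 2 listed tenocyte markers of 6 fell. None of the 3 listed adipocyte markers of 5, the listed Schwann cell marker or the listed fibre marker was called, while cardiomyocyte, smooth muscle, satellite cell and mesothelial markers had no row.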

How the data were processed

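The authors trimmed single-end reads with Trim Galore, aligned them to mm10 with STAR and deposited raw counts per RefSeq transcript (Rsubread); versions and the strand setting are not given in the sources used here. The RPKM values deposited by the authors are counts scaled by transcript length and library total. The authors' own fold changes, F values and p-values were not used, and 1 column of a single library (an RPKM column numbered 4, where the labels stop at 3) was left out.

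Counts were tested with edgeR 4.0.16 (quasi-likelihood, TMM, group only) in R 4.3.3 for features that exceeded 5 counts in 2 or more libraries, and p-values were adjusted by Benjamini-Hochberg over all tested features (24280 and 586). The procedure was tested on simulated data. Library totals were recovered from counts, lengths and RPKM, for 5 libraries in the TAC comparison. Reads assigned to several transcripts of a gene enter these totals repeatedly. DESeq2 1.42.0, limma 3.58.1 on log2(RPKM + 0.5) or log2(RPKM + 0.1), other filters, a replicate block, 1 transcript per gene name and leaving out each library were alternatives. The within-library ratios were added after the data were seen.

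A gene with several transcripts was described by the one with the highest mean count. All members, and of each pathway list the 2 largest called rises and falls, were named. A gene that this rule selects is not reported here. Members and lists were chosen with earlier results of these data known. Positions are from GENCODE on GRCm38 and promoter windows from RefSeq (GRCm38.p6). Intervals and floors cover counting error only. The study describes the libraries of a group as biological replicates. Whether heart and quadriceps libraries of the same number share a mouse is not stated. Replicate libraries differed by more than sampling noise (chi-square per degree of freedom at least 7.1), so none was counted as a duplicate.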

Additional observations from a re-analysis of the deposited data

How the results depend on the processing

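Between the sham tissues the calls of Bmp5, Gdf10, Chrdl1, Nog and Bmp7 held under every alternative that gave a value, while Bmp7 and Nog had none with at least 10 counts in every library. The members called lower numbered 2, and 3 with library totals and both limma settings, which add Bmp4 (-0.82, -0.65 and -0.79), 1 with that filter, 1 by the criterion of a log2 fold change over 2, and 1 to 2 without single libraries. Transcripts called higher numbered 7828, and 3241 with library totals, 3201 and 3218 with limma at pseudocounts of 0.5 and 0.1, 4744 with 1 transcript per gene name and 1699 by that criterion. Those called lower numbered 8354, and 15203, 15319, 15365, 5059 and 2097 in the same order. Bmp2 changed sign to -0.19, -0.08 and -0.16 with library totals and the 2 limma settings, and Bmp4 to 0.03 without quadriceps library 3 (-0.15 to 0.03 without single libraries). After TAC, genes called higher numbered 104, and 20 with library totals, 17 and 16 with the 2 limma settings, 67 by the criterion of a log2 fold change of at least 1 and 25 to 113 without single libraries. Genes called lower numbered 70, and 180, 199 and 198 with the first 3 of these, and 35 to 102 without single libraries. The member called higher (Bmp4) was lost, leaving 0, with library totals, both limma settings and that criterion, and 0 to 1 remained without single libraries. Bmp2 changed sign to 0.05, 0.02 and 0.03 without sham library 1, TAC library 1 and TAC library 4 (-0.82 to 0.05 without single libraries), Bmp6 to 0.03 without TAC library 2 (-0.29 to 0.03), and Nog to -0.34, -0.25 and -0.34 with library totals and the 2 limma settings. The shift in the calls goes with the shift of the median given above. Its cause was not tested. Same-numbered libraries did not deviate together (r = 0.064, -0.036 and 0.047 for heart and quadriceps, 0.079 and -0.176 for sham and TAC), so the numbers were not taken to pair the samples. With the number as a replicate block no member's call changed between the sham tissues (7541 higher and 8175 lower). In the 4 quadriceps libraries numbered 1 and 2, 56 genes were higher and 62 lower with the block and 49 and 39 without it, with 0 members higher in both and Gdf10 lower in both. Leaving out a library of 3 assumes that the spread of the others holds for the group. Depth limits Nog in heart, Bmp7 in quadriceps and Grem1 in both.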
